A study of Mus musculus with 21 samples.

Results

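The tripartite motif (TRIM) genes of the mouse were followed in RNA sequencing of oocytes and granulosa cells. They were taken by symbol, as every gene named Trim with a number and at most 1 further letter, which gave 68 of the 55335 gene identifiers in each library. All 68 are annotated as protein coding. The pseudogene Trim30e-ps1 and the TRIM-like genes Triml1 and Triml2 have other symbols and were not counted. Trim2, Trim7 and Trim9 are also the members for which the study designed PCR primers, and all 3 belong to a gene list that the study chose on these same libraries, so their direction between Young and Aged is not independent evidence.

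The libraries came from female ICR mice and fall into 5 groups for each cell type. Young mice were 6 to 8 weeks old and Aged mice 18 months old, and neither had received cells. The other 3 groups were aged mice that had received human umbilical cord mesenchymal stem cells under the ovarian capsule 3 weeks earlier. These cells were either not sorted (Aged + Unsorted), or sorted for high surface LRP1, a lipoprotein receptor (Aged + LRP1high), or for low surface LRP1 (Aged + LRP1low). There were 3 Young, 2 Aged, 2 Aged + Unsorted, 3 Aged + LRP1high and 2 Aged + LRP1low oocyte libraries, collected at metaphase II. The 9 granulosa cell libraries comprised 1 Young, 2 Aged, 1 Aged + Unsorted, 3 Aged + LRP1high and 2 Aged + LRP1low. The numbers of mice and cells behind a library are not given in the sources used here, so the p-values measure only the spread between these libraries, which may be technical.

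TRIM proteins carry, from their amino end, a RING domain, B-boxes and a coiled coil. The RING domain recruits a ubiquitin-conjugating (E2) enzyme, so that most of these proteins act as E3 ubiquitin ligases. Several, Trim14, Trim16, Trim29, Trim44 and Trim66 among them, lack the RING. The carboxyl end differs between subfamilies and selects the target. A PRY-SPRY domain is common among members of innate immunity, an NHL domain can bind RNA, and a PHD finger with a bromodomain reads histones. In the ovary the family is best known through Trim28, which silences retroelements and, supplied by the egg, protects imprinted methylation in the early embryo.

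Several libraries went against their labels, and this bears on every comparison. The median FPKM (fragments scaled by gene length and by the total of the library) of 10 oocyte markers, such as Zp3 and Gdf9, was 84.9 to 1001 in 8 of the 12 oocyte libraries. It was only 0.892 to 11.6 in Young replicate 1, Aged replicate 1 and both Aged + LRP1low libraries. The library labelled granulosa Aged + Unsorted had a median of 799.7, against 0 to 4.36 in the other 8 granulosa cell libraries. Its correlation with oocyte Aged + Unsorted replicate 2 (Pearson r = 0.967 over log2 values of all genes, which share library chemistry and gene length) was the highest of 210 pairs of libraries. The median of 10 granulosa markers reached 74.9 in the granulosa Young library and 21.4 in granulosa Aged + LRP1high replicate 3, and 0.05 to 1.27 in the other 7. The mean FPKM of 1994 genes silent in ovary (olfactory, vomeronasal and trace amine receptors) was 2.94 in oocyte Aged replicate 1, 2.91 and 2.59 in the 2 Aged + LRP1low libraries, and 0.036 to 1.09 in all others. Aligned depth was 0.278 to 3.40 gigabases in oocyte libraries and 0.335 to 1.49 in granulosa cell libraries. Genes that every cell uses were at or near 0 in several libraries, so the values below are given per library, and an absent member is described as listed at 0. In bulk libraries, fewer cells of a type and less RNA per cell cannot be told apart.

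The TRIM transcripts of the oocyte were dominated by Trim61, a PRY-SPRY member. Its FPKM was 2.08, 29.0 and 465 in the 3 Young libraries, 15.6 and 575 in Aged, 987 and 1336 in Aged + Unsorted, 981, 1258 and 107 in Aged + LRP1high, and 2.51 and 21.2 in Aged + LRP1low. Trim61 was high in the libraries rich in oocyte markers and low in those poor in them, within every group that held both kinds. In the 8 oocyte libraries rich in oocyte markers it made up 17.9% to 78.4% of the summed FPKM of all 68 members, and it was the highest member in 7 of them. In the granulosa cell libraries it was 13.8 in Young, 0 and 1.12 in the Aged libraries, 3.10, 0.405 and 0.450 in Aged + LRP1high, and 0.747 and 4.79 in Aged + LRP1low, whereas the library labelled granulosa Aged + Unsorted held 1058.

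**Figure D1:**
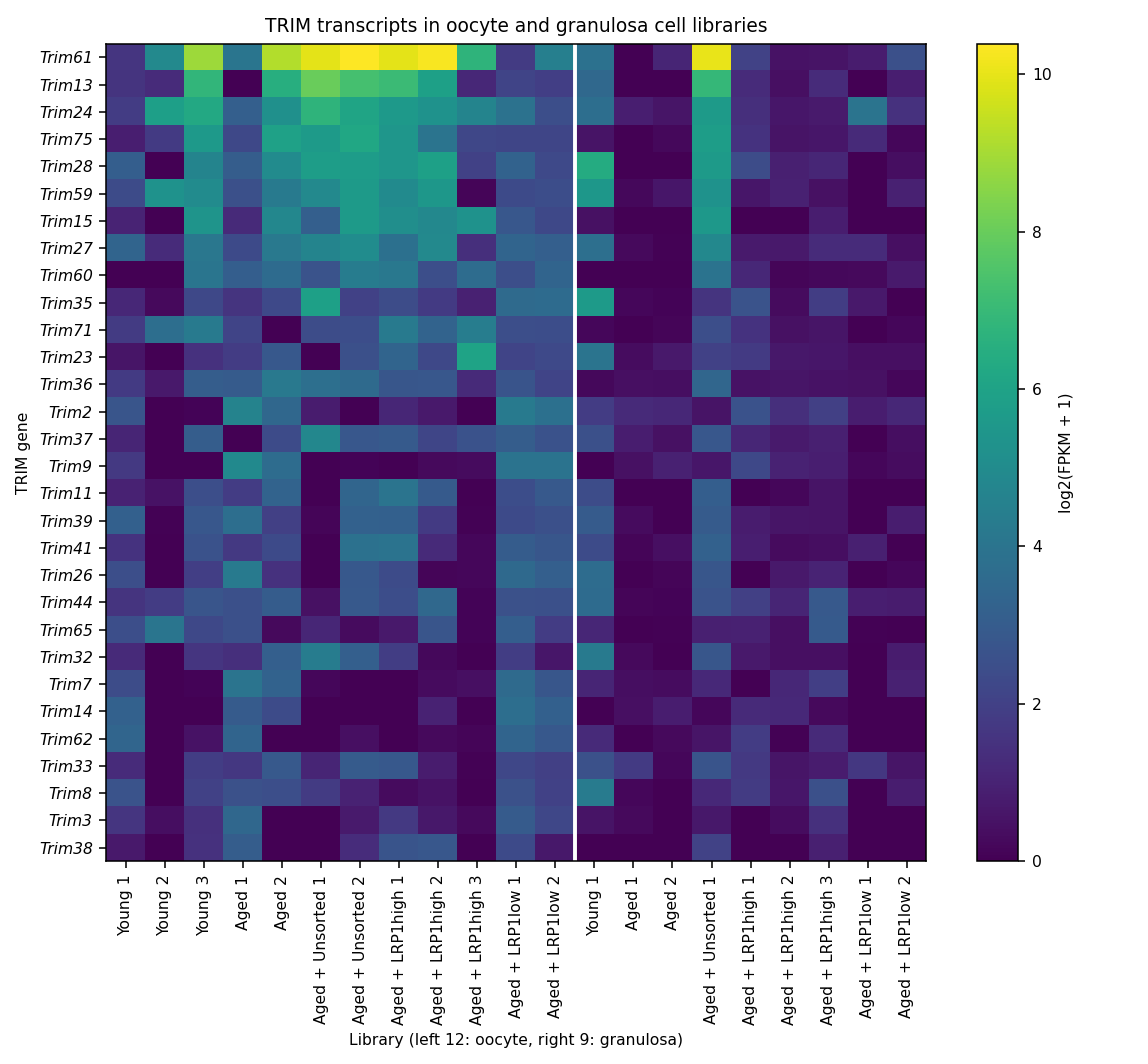
Levels of the 30 TRIM genes with the highest mean in oocyte libraries (rows) in 12 oocyte and 9 granulosa cell libraries (columns, by group and replicate), as log2(FPKM + 1). Trim61 is the brightest row, and the library labelled granulosa Aged + Unsorted resembles the oocyte libraries rather than the other granulosa cell libraries.

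Trim61 lies in a cluster of 3 PRY-SPRY members on the minus strand of chromosome 8 (GRCm38, chr8:64980884-65018584), together with Trim60 and Trim75. The annotation starts Trim60 and a transcript of Trim61 in overlapping first exons, with 66 shared exon bases, which are 3.33% of the exon bases of Trim61. The RefSeq promoter window of both genes is the same and lies upstream of these exons. The windows of the cluster are printed because all 3 genes were called between the cell types. They run from 250 bases before to 50 bases after the RefSeq start (GRCm38.p6, minus strand) and stand at chr8:65018639-65018938 for Trim61 and Trim60 and at chr8:64987595-64987894 for Trim75. Capitals mark the E-box letters CANNTG, bound by factors such as the oocyte regulator Figla, and the homeobox letters TAATTG, read on both strands, where CAATTA is TAATTG on the opposite strand.
Trim61 and Trim60: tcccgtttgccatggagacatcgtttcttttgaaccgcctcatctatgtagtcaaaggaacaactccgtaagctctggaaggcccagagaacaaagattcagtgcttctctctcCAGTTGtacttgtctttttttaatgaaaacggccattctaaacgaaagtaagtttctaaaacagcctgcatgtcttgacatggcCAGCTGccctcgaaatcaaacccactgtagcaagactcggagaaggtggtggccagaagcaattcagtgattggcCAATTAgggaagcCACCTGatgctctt
Trim75: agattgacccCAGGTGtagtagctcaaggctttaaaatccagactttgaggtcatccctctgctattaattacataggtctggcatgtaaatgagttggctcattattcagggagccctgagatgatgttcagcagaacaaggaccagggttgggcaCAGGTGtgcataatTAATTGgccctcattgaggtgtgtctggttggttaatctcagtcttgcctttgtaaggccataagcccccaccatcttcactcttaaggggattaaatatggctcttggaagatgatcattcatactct
Both windows hold TAATTG once and CANNTG at least 2 times, and no match of one overlaps a match of the other. Of 32817 distinct mouse promoter windows of this length, 72.3% hold CANNTG and 8.00% hold TAATTG. RefSeq windows were found for 53 of the 68 members, 66 distinct windows in all, of which 7 hold TAATTG (10.6%). The letters are a description of the windows and not sites of binding.

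Trim75 followed Trim61. Its FPKM was 0.806, 2.43 and 47.4 in Young oocytes, 3.74 and 61.3 in Aged, 49.0 and 72.3 in Aged + Unsorted, 42.6, 14.9 and 3.62 in Aged + LRP1high, and 3.45 and 3.51 in Aged + LRP1low. In the granulosa cell libraries it was at most 1.90, except for 54.5 in the library labelled granulosa Aged + Unsorted. Trim60, also known as Rnf33, was less abundant, at 0 to 19.4 in oocyte libraries, 14.6 in the library labelled granulosa Aged + Unsorted and at most 1.26 in the other granulosa cell libraries. The ligase Trim13, anchored in the membrane of the endoplasmic reticulum, was second in mean level, with 59.0 to 259.7 in 6 of the 8 oocyte libraries rich in oocyte markers but 1.43 in Young replicate 2 and 1.21 in Aged + LRP1high replicate 3. Its membrane-anchored relative Trim59 was at 17.9 to 49.1 in 7 of these 8 and at 0.111 in Aged + LRP1high replicate 3. Both were also found in the granulosa Young library, Trim13 at 10.5 and Trim59 at 44.2.

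Nuclear members made up much of the rest. Trim24, a chromatin reader and coregulator that is also a ligase for p53, was at 2.56, 56.9 and 75.5 in Young oocytes, 7.92 and 35.8 in Aged, 107.5 and 66.7 in Aged + Unsorted, 47.4, 37.9 and 24.8 in Aged + LRP1high, and 14.2 and 4.70 in Aged + LRP1low. All 8 oocyte libraries rich in oocyte markers lay above the other 4 for this gene. Trim28 was at 7.70, 0 and 24.4 in Young oocytes, 7.31 and 31.1 in Aged, 53.8 and 52.3 in Aged + Unsorted, 42.4, 59.5 and 3.04 in Aged + LRP1high, and 8.50 and 3.91 in Aged + LRP1low. Its highest value of all 21 libraries, 83.1, was that of the granulosa Young library, in which it was the leading member. Trim27, a nuclear regulator of transcription, ranged from 1.44 to 32.1 in oocyte libraries and was at 12.9 in granulosa Young.

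Trim15, a protein of focal adhesions, was at 26.8 to 50.1 in 6 of the 8 oocyte libraries rich in oocyte markers, at 7.89 in Aged + Unsorted replicate 1 and at 0 in Young replicate 2. In the 8 granulosa cell libraries other than the one labelled Aged + Unsorted it did not pass 0.764. Trim71 (Lin41), an NHL protein that represses messenger RNAs in early embryos and stem cells, was at 2.51, 12.5 and 18.5 in Young oocytes, 3.40 and 0 in Aged, 4.33 and 4.45 in Aged + Unsorted, 17.7, 8.96 and 19.9 in Aged + LRP1high, and 4.68 and 4.45 in Aged + LRP1low. Trim36, which binds microtubules, ranged from 0.620 to 17.3 in oocyte libraries and from 0.132 to 0.521 in those 8 granulosa cell libraries. Trim35 was high in single libraries, at 58.3 in oocyte Aged + Unsorted replicate 1 and 49.8 in granulosa Young, and at most 11.5 in the other 19.

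**Figure D2:**
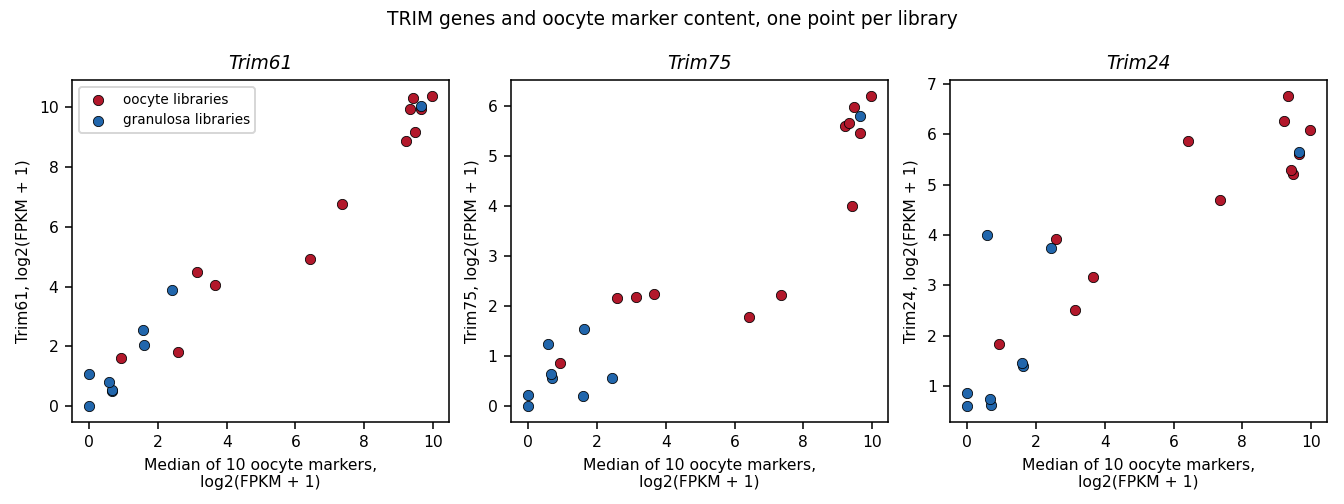
Trim61, Trim75 and Trim24 (vertical axes) against the median of 10 oocyte markers (horizontal axes), all as log2(FPKM + 1), with 1 point per library, oocyte in red and granulosa in blue. Trim61 rises with the markers over the whole range, and the blue point at the upper right of each panel is the library labelled granulosa Aged + Unsorted.

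The oocyte and granulosa cell libraries were then compared in 1 limma model with condition and cell type as terms, on log2(FPKM + 1). Calls needed both a difference of more than 1.5-fold and an adjusted p under 0.05 (Benjamini-Hochberg over all genes tested). Of the 68 members, 43 averaged an FPKM of 1 or more in the 21 libraries and were tested. Of these, 7 were called higher in oocytes and 0 lower, and of the 21767 genes tested 6.5% were called higher and 0.175% lower. Trim61 was higher by 4.17 ± 0.96 (SE, log2 scale, adjusted p = 0.00976) and Trim15 by 2.70 ± 0.68 (adjusted p = 0.0172). The other 5 were Trim75 (2.36), Trim24 (2.34), Trim60 (2.21), Trim71 (2.10) and Trim36 (1.88), with adjusted p-values of 0.0100 to 0.0211. By unadjusted p under 0.05, 14 members were higher, where 19.4% of all genes were, and 0 lower. The median difference of the members was 0.93, against 0.63 for all genes tested, and it was 0.31 against 0.03 after quantile normalization, under which 0 members were called. With the library labelled granulosa Aged + Unsorted included, the oocyte and granulosa libraries overlapped for all 43 members. The share of all genes that overlapped is not given here, so this is not read as a trait of the members.

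The calls were made with the 5 libraries included whose oocyte markers went against their labels. Of the other 8 granulosa cell libraries, only Young (74.9) and Aged + LRP1high replicate 3 (21.4) had a granulosa marker median above 1.27. In granulosa Aged + LRP1low replicate 1 the median of 6 luteal markers was 518.6 and that of the granulosa markers 0.151. The fits without the 5 libraries still hold these granulosa cell libraries. Without the 4 such oocyte libraries, 6 of the 7 were called, all but Trim36, where 8.71% of all genes were called higher. Without the library labelled granulosa Aged + Unsorted, 8 members were called, the 7 and Trim27, where 9.91% of all genes were called higher, and Trim61 was higher by 4.81. Without all 5, 8 of 29 tested were called, the 7 and Trim13, where 14.1% of all genes were called higher, and Trim61 was higher by 6.96 ± 0.95 (adjusted p = 5.18e-05). Between the 3 oocyte and 3 granulosa Aged + LRP1high libraries alone, 4 of the 7 were called, namely Trim61, Trim15, Trim24 and Trim71, where 12.2% of all genes were called higher. When each of the 21 libraries was left out in turn, Trim15, Trim36, Trim60, Trim61 and Trim71 were called every time and Trim24 and Trim75 in 17 of 21. Without the granulosa Young library, 12 of 42 members were called, the 7 with Trim13, Trim23, Trim27, Trim28 and Trim59, and the share of all genes called higher was 11.8%. Since most granulosa cell libraries held few granulosa transcripts, a higher level in oocytes and a poorer granulosa library cannot be told apart for a member that both cell types use.

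**Figure D3:**
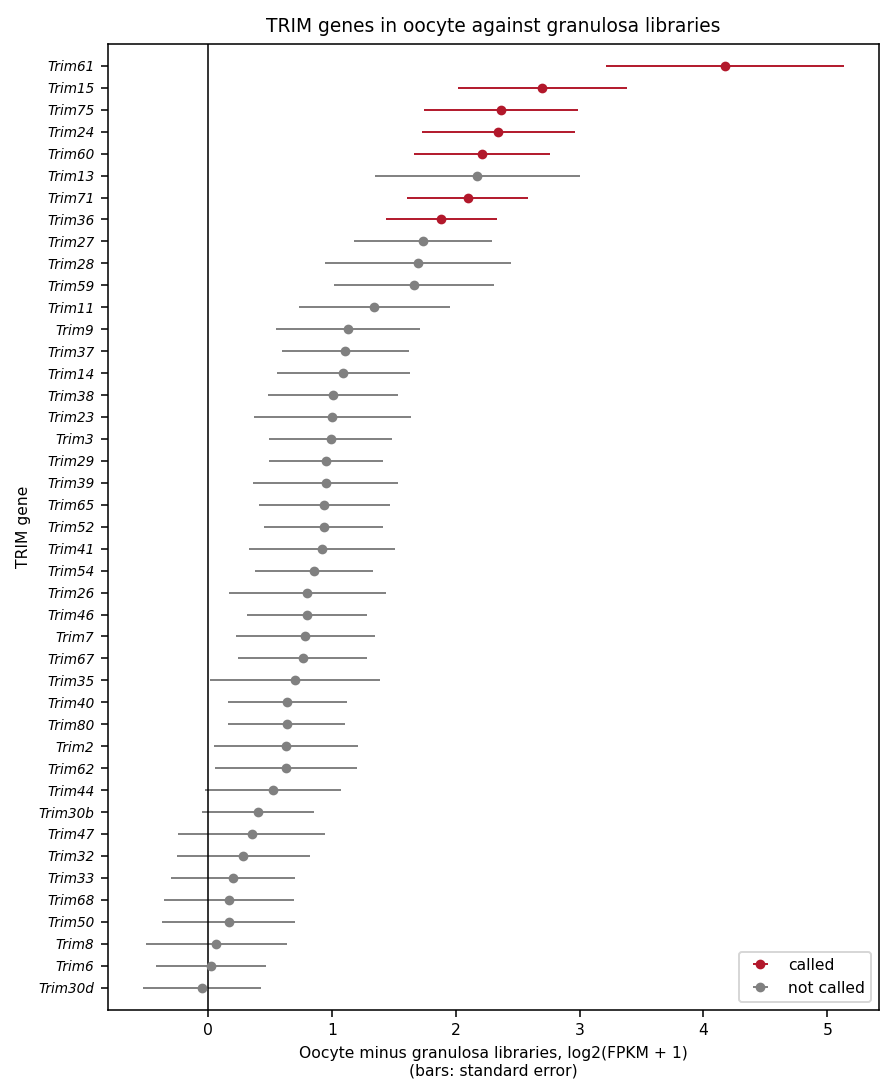
Difference between oocyte and granulosa cell libraries for the 43 TRIM genes tested, on the log2(FPKM + 1) scale with condition as a term, where bars are standard errors and red marks the called genes. The 7 called genes lie between 1.88 and 4.17, and Trim13, at 2.17, was not called.

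Of 9 partners of Trim28 in silencing, 4 were called higher in oocyte libraries, where 6.5% of all genes were. They were the methylation maintenance genes Uhrf1 (3.91) and Dnmt1 (3.89), the zinc finger gene Zfp57 (3.84) and the histone methyltransferase gene Setdb1 (1.80). All 10 oocyte markers were called higher in the same fit, with a median difference of 4.68, and their part in these differences was not tested. Of the 13 E2 enzymes that serve RING ligases, 0 were called. Of 14 innate signalling and interferon-response genes, 7 were tested and 0 called.

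Most other members were near the floor, and how many appeared above it went with the level of the silent genes. At an FPKM of at least 1 there were 68 and 62 members in the Aged + LRP1low oocyte libraries and 57 in Aged replicate 1, the 3 libraries with the highest silent-gene means. There were 9 to 37 in the other 9 oocyte libraries and 2 to 33 in the granulosa cell libraries. Among all genes, 86.6%, 70.4% and 50.5% were at FPKM 1 or more in those 3 libraries, against 5.67% to 35.6% in the other oocyte libraries. In the granulosa cell libraries this share was 3.78% to 38.8%. Counted instead above the 95th percentile of the silent genes of the same library, the members numbered 28 and 12 in the Aged + LRP1low libraries and 7 in Aged replicate 1. These were 41.2%, 17.6% and 10.3% of the members, where 26.3%, 15.3% and 10.9% of all genes were above that level, in this order. The highest such count of an oocyte library was 37 (54.4%), in Young replicate 3, where 30.03% of all genes were above it.

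**Figure D4:**
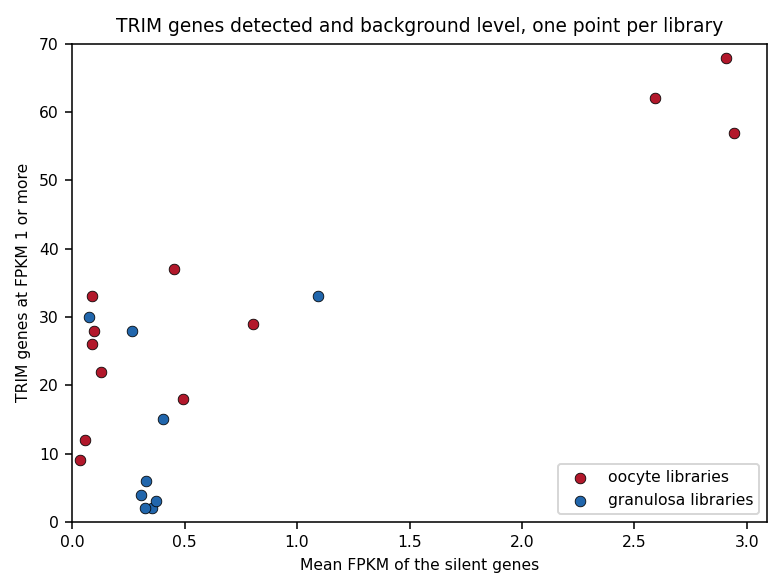
Number of TRIM genes at FPKM 1 or more (vertical axis, of 68) against the mean FPKM of 1994 silent genes (horizontal axis), with 1 point per library, oocyte in red and granulosa in blue. The 3 points at the right are oocyte Aged replicate 1 and the Aged + LRP1low libraries, with 57, 68 and 62 members.

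Trim2, Trim7 and Trim9 were high in Aged and Aged + LRP1low oocytes and near 0 in most other oocyte libraries. Trim2 is an NHL ligase of neurons, Trim9 a neuronal ligase of the netrin pathway, and Trim7 a PRY-SPRY ligase that binds glycogenin. Their primers are shown because they define the part of each gene that the study's PCR measures. The study reports that the LRP1high cells restored Trim2 expression in oocytes of aged mice. Its main text does not name Trim7 or Trim9. They are given forward then reverse, and capitals are not used.
Trim2 forward: tgcgccagattgacaagca
Trim2 reverse: caggcacctctcgcagaaa
Trim7 forward: acagaaacagaatgagaacctgg
Trim7 reverse: gctcagtgtgcttttgaactcc
Trim9 forward: ggcccactccgacatcatc
Trim9 reverse: caccacccggtcatcgtag
In the GENCODE transcripts the pairs enclose 104 bases of Trim2 in 13 of its 19 transcripts, 133 bases of Trim7 in 2 of 7, and 73 bases of Trim9 in 5 of 12, and no other gene was matched by both primers of a pair. The genes lie on chromosomes 3 (Trim2, GRCm38, chr3:84160439-84306877), 11 (Trim7, chr11:48826140-48852209) and 12 (Trim9, chr12:70244533-70347614).

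In oocytes the FPKM of Trim9 was 2.35, 0 and 0 in the Young libraries, 29.8 and 11.6 in Aged, 0 and 0.0623 in Aged + Unsorted, 0, 0.202 and 0.220 in Aged + LRP1high, and 14.4 and 14.6 in Aged + LRP1low. That of Trim2 was 5.71, 0 and 0.0701 in the Young libraries, 24.1 and 10.2 in Aged, 0.736 and 0 in Aged + Unsorted, 1.18, 0.615 and 0 in Aged + LRP1high, and 17.9 and 13.3 in Aged + LRP1low. That of Trim7 was 4.29, 0 and 0.0597 in the Young libraries, 15.1 and 8.55 in Aged, 0.148 and 0 in Aged + Unsorted, 0, 0.231 and 0.331 in Aged + LRP1high, and 11.2 and 5.78 in Aged + LRP1low. For each of the 3 genes, all Aged and Aged + LRP1low oocyte libraries lay above the other oocyte libraries, of which Young replicate 1 was the highest. The 4 high libraries were also the 4 oocyte libraries with the highest silent-gene means, at 0.806 to 2.94, and Young replicate 1, at 0.452, came after Aged + Unsorted replicate 1, at 0.492. Ranked by FPKM, the 3 members were still high among silent genes in the 4 high libraries, least so Trim7 in Aged + LRP1low replicate 2. In the Aged + LRP1low libraries, the shares of silent genes at or above Trim9 were 0.201% and 0.201%. They were 0.201% and 0.251% for Trim2, and 0.351% and 6.67% for Trim7. In Aged replicate 1 only 0.150% of the silent genes were at or above Trim9, 0.451% at or above Trim2 and 1.65% at or above Trim7, and in Aged replicate 2 these shares were 1.86%, 2.36% and 2.91%. The read depth was low in the 2 Aged libraries. The deposited mean depth was 2.13 and 0.466 reads over Trim9, 0.790 and 0.395 over Trim2, and 2.29 and 0.245 over Trim7. In Aged replicate 1, Trim2 had an FPKM of 24.1 at a depth of 0.790, but Trim61 had 15.6 at 8.99. FPKM and depth thus did not scale alike between these genes. The ranks among silent genes rest on FPKM alone, and ranks by depth were not taken. The part of the background in these levels was not tested beyond subtraction of the silent-gene mean, given with the tests below.

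**Figure D5:**
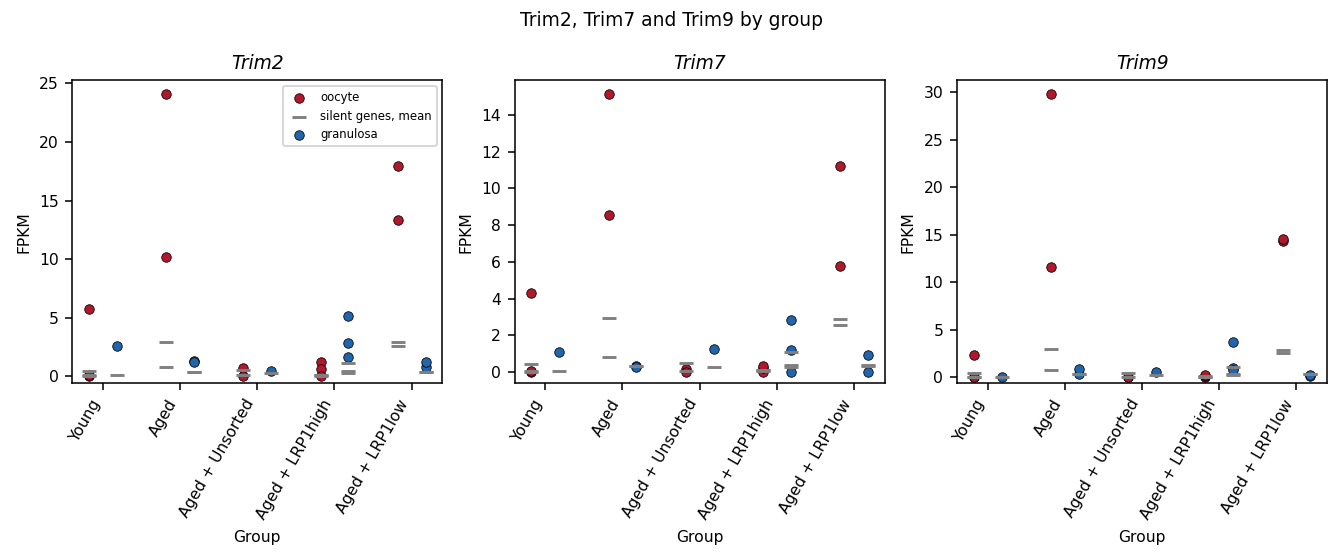
FPKM of Trim2, Trim7 and Trim9 by group, with 1 point per library, oocyte in red and granulosa in blue, and grey dashes for the mean FPKM of the silent genes in each library. Oocyte Aged libraries (8.55 to 29.8) and Aged + LRP1low libraries (5.78 to 17.9) lie above all others for each gene, and their grey dashes are the highest among the oocyte libraries.

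In the oocyte comparisons all 12 libraries entered 1 limma model with a mean for each group, and 52 members were tested. Between Aged and Young, 0 members were called, against 0.0964% of the 28004 genes tested. At an unadjusted p under 0.05, 5 members were higher in Aged (Trim9, Trim2, Trim7, Trim30b and Trim29) and 1 lower (Trim71), where 8.43% and 0.214% of all genes were. The largest difference was that of Trim9, 3.72 ± 0.71 (adjusted p = 0.0656), followed by Trim2, 3.12 ± 0.89 (0.169), Trim7, 2.80 ± 0.79 (0.165), and Trim30b, 1.80 ± 0.58 (0.268). Groups did not overlap for 7 members, all higher in Aged, and for 11% of all genes in this direction. The median member difference was 0.88, and 0.94 for all genes, but -0.16 and -0.01 after quantile normalization. Without the 4 oocyte libraries poor in oocyte markers, 1 Aged and 2 Young libraries remained, and 3 of 27 members were called higher, Trim9 (3.66, adjusted p = 0.00859), Trim7 (3.21, 0.0128) and Trim2 (3.44, 0.0478), where 7.5% of all genes were. In the same fit Trim71 was called lower in Aged (-4.02, adjusted p = 0.0206), where 0.0826% of all genes were. That single Aged library was assumed to vary as the other groups did. Leaving out Aged replicate 2 instead, which left the library with the highest silent-gene mean, gave 16 calls among 52 members, all higher, where 33% of all genes were called higher. Without Aged replicate 1, 1 of 44 members was called (Trim30b), where 3.78% of all genes were called higher. Without Young replicate 1, 4 of 52 were called (Trim14, Trim2, Trim7 and Trim9), where 2.72% of all genes were.

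In the oocytes of aged mice that had received unsorted cells, 0 members and 0% of all genes were called against Aged. Unadjusted p-values under 0.05 were found for 1 member that was higher, where 1.7% of all genes were, and for 7 that were lower, where 7.04% were. Groups did not overlap for 9 members that were higher in Aged + Unsorted, where 10.3% of all genes did not overlap in this direction, and for 8 that were lower, where 11.3% of all genes did not. The higher ones were led by Trim13 (difference 4.42 ± 2.42), Trim61 (3.56 ± 2.22), Trim37, a ligase of centrioles and peroxisomes (2.63 ± 1.12), and Trim24 (2.24 ± 1.33). The oocyte markers moved with them, with a median difference of 3.22. The lower ones were led by Trim9 (-4.26 ± 0.78, adjusted p = 0.0835), Trim2 (-3.67 ± 0.97), Trim7 (-3.53 ± 0.87) and Trim14, an adaptor of antiviral signalling on mitochondria (-2.68 ± 1.03). The median difference was -0.88 over members and -0.86 over all genes, and 0.07 and 0.02 after quantile normalization. Leaving out Aged replicate 2 gave 17 calls, 16 of them lower, where 35.6% of all genes were called lower. Leaving out Aged replicate 1 gave 2 of 44 (Trim30b and Trim9), both lower, where 3.69% of all genes were.

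Against the same Aged libraries, 1 member was called in Aged + LRP1high oocytes. Trim9 was lower by a log2 difference of -4.12 ± 0.71 (adjusted p = 0.0439), and 0.753% of all genes were called lower. Trim2 (-3.46 ± 0.89, adjusted p = 0.0903) and Trim7 (-3.40 ± 0.79, 0.0690) were not called. Unadjusted p-values under 0.05 were found for 8 members that were lower, where 9.94% of all genes were, and for 1 that was higher, where 0.925% were. Groups did not overlap for 9 members that were lower, where 12.4% of all genes did not overlap in this direction, and for 2 that were higher, where 3.85% did not. The higher ones were Trim71 (2.91 ± 0.88) and Trim15 (2.07, adjusted p = 0.412), and the fourth of the lower ones by size was Trim14 (-2.35 ± 0.94). The oocyte markers had a median difference of 2.40 in the same comparison, and their part in the higher values was not tested. The median difference was -0.89 over members and -1.05 over all genes, but 0.28 and 0.04 after quantile normalization. Trim9 lost its call when any of the 3 Aged + LRP1high libraries was left out (adjusted p = 0.168 to 0.197), with the silent-gene mean subtracted (0.188) and after quantile normalization (0.462), and over all these its difference stayed between -4.17 and -3.18. Without Aged replicate 2 there were 18 calls, all lower, where 38.7% of all genes were called lower, and without Aged replicate 1 there were 2 (Trim30b and Trim9), where 4.56% were. Without the 4 oocyte libraries poor in oocyte markers, Trim9 (-3.47, adjusted p = 0.00741), Trim7 (-3.02, 0.0126) and Trim71 (3.98, 0.0167) were called, against a single Aged library, where 7.77% of all genes were called lower and 0.0826% higher.

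In Aged + LRP1low oocytes, 0 members were called against Aged, while 3.17% of all genes were. Before adjustment, p was under 0.05 for 3 members that were higher, where 13.2% of all genes were, and for 0 that were lower. Groups did not overlap for 12 members that were higher, where 27.1% of all genes did not overlap in this direction, and for 3 that were lower, where 9.55% did not. The higher ones were led by Trim72, a muscle protein of membrane repair, which was at 7.78 and 3.44 in Aged + LRP1low and listed at 0 in each Aged library (adjusted p = 0.0863). After it came Trim68, a coactivator of the androgen receptor (1.89 ± 0.84), Trim66, a PHD-bromodomain member of the testis (1.81 ± 0.77), and Trim35 (1.68 ± 1.15). The lower ones were Trim75 (-1.94 ± 1.62), Trim36 (-1.17 ± 0.91) and Trim59 (-0.99 ± 1.60). The median difference was 0.63 over members and 0.68 over all genes, and -0.01 and -0.05 after quantile normalization. Trim2, Trim7 and Trim9 differed by -0.03 to -0.45, and their groups overlapped. Leaving out Aged replicate 1 gave 7 calls among 44 members, all higher, where 20.9% of all genes were called higher.

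The most calls were made between the groups that received the 2 sorted populations. Of the 52 members, 15 were called lower in Aged + LRP1high than in Aged + LRP1low oocytes and 0 higher, and of all genes 24.8% were called lower and 1.21% higher. The share among members was thus close to that among all genes tested. The 8 largest were Trim9 (-3.77 ± 0.71, adjusted p = 0.0192), Trim2 (-3.44), Trim14 (-3.14), Trim7 (-2.95), Trim54 (-2.85), Trim29 (-2.69), Trim46 (-2.68) and Trim72 (-2.64). The other 7 were Trim80, Trim66, Trim30b, Trim6, Trim63, Trim10 and Trim56. By function these are mixed. Trim54 and Trim63 are ligases of the muscle sarcomere, Trim46 bundles microtubules in axons and Trim29 acts in the response to DNA damage. Trim54 was listed at 0 in all 3 Aged + LRP1high libraries and was at 5.30 and 7.26 in Aged + LRP1low. Trim46 was at 0, 0.355 and 0 against 6.91 and 5.37.

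Groups did not overlap for 29 members that were lower, where 62.6% of all genes did not overlap in this direction. For 5 members Aged + LRP1high was above Aged + LRP1low in every library, where 6.82% of all genes were. Trim61 was among these, at 107 to 1258 against 2.51 and 21.2, and its difference of 5.86 ± 2.03 was not called (adjusted p = 0.0529). The median difference was -1.92 over members and -1.89 over all genes, but 0.16 and -0.01 after quantile normalization, under which only Trim9 was called. With the silent-gene mean subtracted from each library, 0 members were called, and the median difference was 0.34. When any of the 3 Aged + LRP1high libraries was left out, 0 members and 0% of all genes were called. Leaving out either Aged + LRP1low library left that group with a lone library. Both Aged + LRP1low libraries were poor in oocyte markers, so without such libraries no comparison was left.

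Among the other genes of these pathways, Uhrf1 and Dnmt1 were called higher in Aged + LRP1high than in Aged + LRP1low oocytes, by 5.23 and 4.72. The 10 oocyte markers moved with them, with a median difference of 5.89 and 3 of them called higher, and their part in these differences was not tested. The chromatin remodeller gene Smarcad1 (-3.21), the E2 gene Ube2v2 (-2.59) and the interferon-response gene Ifit3 (-2.47) were called lower. In each of the other 5 oocyte comparisons, 0 of the 13 E2 enzymes, 0 of the 9 partners of Trim28 and 0 of the 9 innate genes tested were called.

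Between Aged + LRP1high and Young oocytes, 0 members and 0% of all genes were called. The single member with an unadjusted p under 0.05, where 2.96% of all genes were higher at this level, was Trim23, a ligase with an ARF-type GTPase domain. It was at 9.22, 3.73 and 64.7 in Aged + LRP1high and at 0.488, 0 and 1.77 in Young (3.20 ± 0.99, adjusted p = 1), and it was also the only member whose groups did not overlap, where 1.67% of all genes did not overlap in this direction. Trim2, Trim7 and Trim9 differed by -0.34 ± 0.79, -0.59 ± 0.71 and -0.40 ± 0.64, with overlapping groups. The median difference was -0.20 over members and -0.14 over all genes, and 0.04 and 0.02 after quantile normalization.

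In granulosa cells 27 members were tested, and 0 were called in Aged + LRP1high or in Aged + LRP1low against Aged, as were 0% of all 13002 genes. Before adjustment, p was under 0.05 for 2 members that were higher in Aged + LRP1high, where 7.99% of all genes were, Trim44 (1.85 ± 0.58, adjusted p = 0.458), a member without a RING, and Trim28 (1.47 ± 0.54, 0.458), and for 0 members in Aged + LRP1low. Groups did not overlap for 14 members that were higher in Aged + LRP1high, where 50.4% of all genes did not overlap in this direction. All 27 members had a difference above 0, as had 92.8% of all genes, and after quantile normalization 14 of the 27 had one. In Aged + LRP1low, 4 members lay above and 2 below Aged in every library, where 30.5% and 6.95% of all genes did. Both comparisons rest on the 2 granulosa Aged libraries, in which few genes of any kind were detected. At FPKM 1 or more there were 2 members in each (2.94%), where 4.94% and 3.78% of all genes were. The summed FPKM of the members was 12.1 and 13.7. Actb, which every cell uses, was at 0.461 and 1.74. Without Aged + LRP1low replicate 2, Trim24, at 15.0 in the other Aged + LRP1low library, was called higher, as were 5.57% of all genes. The granulosa Young and Aged + Unsorted groups had 1 library each and were not compared.

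Whether the difference between Aged + LRP1high and Aged was the same in oocytes and granulosa cells was tested in 1 model of both cell types. Of 43 members 0 were called, as were 0% of all genes. At an unadjusted p under 0.05, 7 were lower in oocytes relative to granulosa cells, where 15.8% of all genes were, and 0 were higher. Trim9 had the smallest adjusted p, 0.0757, with -4.79 ± 1.00. It was called without the 4 oocyte libraries poor in oocyte markers (-4.14, 0.0364), where 3.56% of all genes were called lower. Leaving out oocyte Aged replicate 2 gave 15 calls among 42 members, all lower, where 35.3% of all genes were called lower, and leaving out oocyte Aged replicate 1 gave 1, where 3.23% were.

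By subfamily, the levels of the oocyte were spread unevenly. The 4 PHD-bromodomain members summed to 27.9 to 162 FPKM in the 8 oocyte libraries rich in oocyte markers, most of it from Trim24 and Trim28. Trim33, which acts on Smad signalling, ranged from 0 to 6.98 in them and Trim66 from 0 to 0.208. The 4 NHL members summed to 10.3 to 24.4 in the same libraries. Among these Trim32 ranged from 0 to 19.3 and Trim3, a ligase of neurons, from 0 to 2.33. The 39 PRY-SPRY members had a median FPKM of 0 to 0.319 in the same 8 libraries, although they include Trim61.

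Levels differed within clusters of neighbouring members. Of the 68 members, 30 lie in 8 clusters in which neighbours are within 500000 bases. In the largest, 10 PRY-SPRY members from Trim6 to Trim30d on chromosome 7 (GRCm38, chr7:104218793-104507849), the highest mean over oocyte libraries was 1.39. In the cluster of 5 on chromosome 17 (chr17:36837134-36910214), Trim15 had a mean of 19.7, and none of Trim26, Trim10, Trim40 and Trim31 had a mean of 10 or more. In the 3 Trim43 genes on chromosome 9 (chr9:88580891-89092835), known from the early embryo, the highest mean was 1.16. Of the members, 7 share over 10% of their exon words of 50 bases with another member (Trim34a, Trim34b, Trim43a, Trim43b, Trim43c, Trim5 and Trim12c), so reads could be split between copies and their levels are uncertain.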

How the data were processed

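RNA of 12 oocyte and 9 granulosa cell libraries was measured by Smart-seq2 sequencing, grouped by the labels. The submitters' processing notes name HISAT2 2.2.1 for alignment and StringTie 1.3.3b for the values. The authors deposited FPKM (fragments scaled by gene length and library total), TPM (scaled to a fixed sum) and coverage (mean read depth) for each gene. The notes name the build mm9, but all 68 members and 54587 of 55335 identifiers have the coordinates of the GENCODE annotation of GRCm38, which was used here. FPKM normalises each library to its own total, so a few abundant genes or background reads lower or raise the rest. No read counts were used, so no counting intervals are given.

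Repeated identifiers (3 to 14 per library, no member among them) were summed. Depth comes from coverage divided by FPKM, as the median of 21693 single-exon genes. Genes averaging an FPKM of 1 or more were tested on log2(FPKM + 1) with limma 3.58.1 in R 4.3.3, checked on simulated data. Named members are those with study primers, called members (the 8 largest where over 12 were called), the 8 highest in each cell type, the largest 4 differences without overlap in each direction against Aged, the PHD-bromodomain and NHL members, and clusters. The members and lists were chosen with earlier results of these data known. Alternatives were TPM, quantile normalization, pseudocount, filter, trend, replicate block, background subtraction, 2-group fits and libraries left out. After the data were seen, fits without the libraries whose oocyte markers went against their labels were added. Promoter windows and primers came from RefSeq and the study's primer table.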

Additional observations from a re-analysis of the deposited data

Results flagged for a closer look

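The single library labelled granulosa Aged + Unsorted is in no comparison between granulosa groups. In it, 9 members had an FPKM of at least 10 and lay above both granulosa Aged libraries: Trim61 (1058), Trim13 (118.5), Trim75 (54.5), Trim24 (49.0), Trim28 (48.9), Trim15 (45.9), Trim59 (38.2), Trim27 (28.1) and Trim60 (14.6). In the 2 granulosa Aged libraries none of these 9 passed 1.12. In 7 of the 9 this library was above all other granulosa cell libraries, and the exceptions were Trim28 and Trim59, which were higher in granulosa Young (83.1 and 44.2). The median FPKM of the 10 oocyte markers in this library was 799.7, and that of the 10 granulosa markers was 1.27.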

How the results depend on the processing

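Counts of called members are given where a setting moved them by more than 1.5 times. With TPM in place of FPKM, 2 members were called between Aged and Young oocytes, 3 between Aged + Unsorted and Aged, 3 between Aged + LRP1high and Aged, 4 between Aged + LRP1low and Aged, 32 between Aged + LRP1high and Aged + LRP1low, and 4 in the test of the difference between cell types. The shares of all genes called were, in this order, 2.14% higher, 1.94% lower, 2.65% lower, 18.1% higher, 46.7% lower and 2.9% lower. For each share only the direction with more calls is given. Without a filter the counts of members were 2, 2, 3, 7, 32 and 3, and 2 between oocytes and granulosa cells. The shares of all genes were then 1.59% higher, 1.56% lower, 2.03% lower, 21.5% higher, 41.8% lower, 2.04% lower and, between cell types, 0.346% higher. Between Aged + LRP1high and Aged, 0 members were called with a pseudocount of 0.1, quantile normalization, background subtraction, trend and robust variances, or only the 2 groups in the fit. In each of these fits at most 0.0536% of all genes were called lower. Between Aged + LRP1high and Aged + LRP1low, 0 were called with the pseudocount or background subtraction, 1 with quantile normalization and 42 with only the 2 groups. With only the 2 groups, 63.1% of all genes were called lower and 3.81% higher, and with quantile normalization 1.99% lower and 0.528% higher. Between oocytes and granulosa cells, 0 were called with quantile normalization, and 4 without the Aged + LRP1low oocyte libraries or with the Aged + LRP1high libraries alone. Of all genes, 0.221%, 4.53% and 12.2% were called higher in these fits, in this order. Without the 4 oocyte libraries poor in oocyte markers only 1 oocyte Aged library was left, so counts of these fits are not compared here. Between Aged + Unsorted and Aged, Trim9 then differed by -3.61 and Trim7 by -3.16. In the fits without a filter other genes were tested, and in those of fewer libraries fewer samples entered. For the other settings the cause was not tested.

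With each library left out in turn, the counts ranged from 0 to 16 for Aged against Young, 0 to 17 for Aged + Unsorted, 0 to 18 for Aged + LRP1high and 0 to 7 for Aged + LRP1low against Aged, 0 to 0 for Aged + LRP1high against Aged + LRP1low and against Young, 5 to 12 for the cell types, 0 to 15 for the difference between them, and 0 to 0 and 0 to 1 for the granulosa comparisons. A lone library was then assumed to vary as the other groups did. The shares of all genes called in the fits with the most calls stand with the comparisons above. Over the named members, values called in the reported fits stayed called 236 times under alternatives and lost the call 109 times, values not called stayed so 268 times and gained a call 36 times, and 0 changed sign. The members followed here were named for calls or groups without overlap in these same data, or for the study's primers. A kept sign was therefore likely beforehand and is no measure of stability. With background subtraction the median member difference of Aged + LRP1low against Aged was -0.45.

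Whether the replicate numbers pair the samples could not be decided from correlations, which were taken within each cell type only. In a group of 2 libraries the deviations from the group mean mirror each other. Oocyte Young replicate 1 thus had r = 0.44 with Aged replicate 1 and r = -0.44 with Aged replicate 2. Of 21 pairs of same-numbered oocyte libraries, 4 had deviations from their group means that correlated above 0.1 (r from -0.44 to 0.44). With the replicate block, 0 members were called between Aged + LRP1high and Aged and 0 between Aged + LRP1high and Aged + LRP1low, and 7 between oocytes and granulosa cells in the libraries whose condition and number occur in both. Of all genes, 0%, 0% and 4.85% were called higher in these fits.

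Depth limits the members near the floor, since 1 read weighs most in the shallow libraries, among them both Aged + LRP1low oocyte libraries (0.515 and 0.278 gigabases).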
